A study of Mus musculus with 11 samples.

Results

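Fibroblasts sorted from advanced mammary carcinoma were compared with fibroblasts sorted from mammary carcinoma, in 6 of the 11 arrays of a stage series. The members were taken from the sample titles: 3 arrays of late carcinoma, called advanced carcinoma here (D8, D9 and D11), and 3 arrays of carcinoma (D3, D4 and D10). All 6 came from female MMTV-PyMT mice on the FVB/n background, which carry the polyoma middle T oncogene under the mouse mammary tumour virus promoter. That promoter drives the oncogene mainly in the mammary epithelium. The carcinoma mice were 9 weeks old and the advanced carcinoma mice 12 weeks old, so age and stage cannot be told apart. The other 5 arrays were 2 of normal gland from FVB/n mice without the transgene (8 weeks) and 3 of hyperplasia from MMTV-PyMT mice (4 weeks). Each array held RNA pooled from 1 cohort of mice, and the cells were not cultured. The labels give the sort as CD140+ F4/80- EpCAM-, while the study's methods name only CD140a and F4/80 for the arrays and EpCAM for a separate sort. Levels are log2 values of the robust multi-average method, and 19938 genes with 1 symbol for a probe set were tested.

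In MMTV-PyMT mice the gland passes through hyperplasia and adenoma to invasive carcinoma that seeds the lung. Cancer-associated fibroblasts are the main matrix-producing cells of such tumours, and they also secrete proteases, growth factors, cytokines and chemokines. CD140a is PDGFRα, the receptor used to sort them, F4/80 is a macrophage surface protein encoded by Adgre1, and EpCAM marks epithelial cells. The question asked here is which genes separated the later from the earlier tumour stage.

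Carcinoma D4 stood apart from its stage. Over all genes, 1 minus Pearson's r was 0.00633 between D3 and D10 but 0.0393 between D4 and D3 and 0.05 between D4 and D10. D4 was nearer to advanced D8 (0.0251) and D9 (0.0248) than to either carcinoma array. In 7.14% of genes D4 lay more than 1 log2 unit from the mean of its stage mates, against 0.125% to 2.61% for the other 5 arrays. Pdgfra read 10.90 in D3 and 11.01 in D10 but 9.21 in D4, and 10.60, 10.50 and 10.80 in D8, D9 and D11. Epcam read 9.29, 9.91 and 8.91 in D3, D4 and D10 and 9.62, 9.57 and 8.69 in D8, D9 and D11, above the normal and hyperplasia range of 6.02 to 8.01 in all 6 arrays. Adgre1 read 5.48, 7.23 and 5.18 in D3, D4 and D10 and 7.49, 7.66 and 5.74 in D8, D9 and D11, against 3.73 to 5.07 in normal gland and hyperplasia. Every count was therefore made with D4 and without it.

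A second array needs a limit of its own. For each probe set, D11 added to normal D2 gave 2 times the average of the 9 remaining arrays, to within 0.000144. D11 is thus fixed by the other 10 arrays and cannot be counted as independent of them. Normal D2 is fixed in the same way, and the values do not tell which of the 2, if either, was derived. The step behind the tie is not given in the sources used here. D8 and D9 were the closest pair of the 6 (0.00423), while D11 was nearer to carcinoma D3 (0.00942) and D10 (0.00976) than to D8 (0.0113) or D9 (0.011).

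With all arrays, no gene passed an adjusted p under 0.05 in the limma fit of 4 stages (0 of 19938 genes, 0%), and the smallest adjusted p was 0.370. At an unadjusted p under 0.05, 1124 genes passed (5.64%). The study's threshold of an unadjusted p under 0.05 with a fold over 1.5 was passed by 145 genes (0.727%), 86 higher in advanced carcinoma (0.431%) and 59 lower (0.296%). That split was 59.3% higher, and it became 45.2% with arrays centred on their medians and 46.1% after quantile normalization. Leaving out 1 array moved the count of 145 to 615 without D4, 247 without D10, 81 without D9 and 268 without D11. Since 3 arrays against 3 cannot give an exact permutation p below 0.1 (two-sided), no single gene was tested that way.

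Without D4 no gene passed the adjusted threshold either (0%), but the smallest adjusted p was 0.0536 and 2966 genes had an unadjusted p under 0.05 (14.9%). The study's threshold was passed by 615 genes (3.08%), 307 higher and 308 lower (1.54% each). The share of higher genes was 49.9%, against 36.7% with median-centred arrays and 37.4% after quantile normalization. The median spread among carcinoma arrays was 0.133 log2 units (SD, n = 3) with D4 and 0.0766 without it (n = 2), against 0.0837 in advanced carcinoma (n = 3).

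The differences that held, past the study's threshold in the same direction with and without D4, numbered 94 genes (0.471% of those tested), 51 higher (0.256%) and 43 lower (0.216%). They were 64.8% of the 145 genes and 15.3% of the 615. Held genes numbered 50 without D3, 53 without D9 and 229 without D11. In 38 of the 94 genes, 25 higher and 13 lower, the threshold was passed in each of the up to 22 settings with all arrays as their base in which the gene was tested, and in 27 of these, 18 higher and 9 lower, it was passed in each of the settings without D4 as well. Genes with a mean level under the median gene, among them Mmp13, Fgf23, Aldh1a2, Reg1, Reg3g and Il1a, were not tested in the setting with dim genes removed. In 43 of the 51 higher genes all 3 advanced arrays lay above the whole range of normal gland and hyperplasia, and in 31 of the 43 lower genes all 3 lay below it. The same was not counted over all genes, so nothing is read from this. Groups did not overlap in 27 of the 51 higher genes (6.48% of all genes) and 27 of the 43 lower genes (5.77%), and nothing is read from these counts since the threshold used the same contrast. The advanced array nearest to carcinoma was D11 in 46 of the 51 higher and 30 of the 43 lower genes. Over all genes D11 was the lowest of the 3 advanced arrays in 34.3%, and the share where it was highest was not counted.

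**Figure D1:**
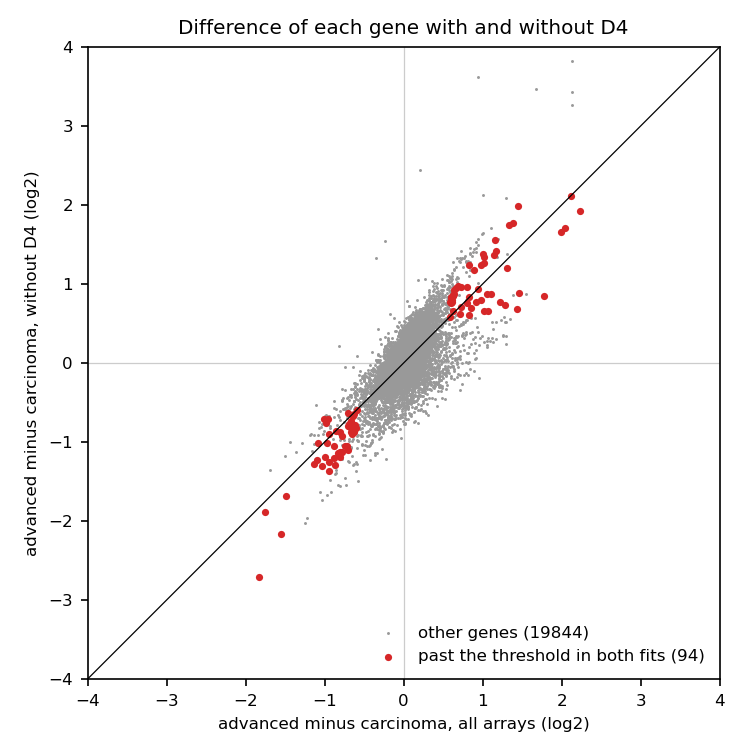
Difference between advanced carcinoma and carcinoma for each gene with all arrays (x axis, log2) and without D4 (y axis, log2), with the line of equality. Red points are the 94 genes past the study's threshold in both fits. Many other genes moved off the line when D4 was left out.

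Mmp13, a collagenase that cleaves fibrillar collagen, had the largest difference with all arrays. It read 5.88, 5.18 and 6.31 in D3, D4 and D10 and 8.45, 8.09 and 7.51 in D8, D9 and D11, with 3.36 to 3.90 in normal gland and hyperplasia. Every advanced array was above every carcinoma array. The difference was 2.23 log2 units (SE 0.30, 4.69-fold higher, adjusted p 0.370 by limma) with all arrays and 1.93 (SE 0.26, adjusted p 0.0536) without D4. Among the 23 measured matrix proteases and inhibitors, Mmp13 was the only member that held in the higher direction (0.256% of all genes). Mmp10, a stromelysin, also kept its groups apart, with 4.99, 4.66 and 4.91 in carcinoma and 5.41, 5.34 and 5.29 in advanced carcinoma, but its differences of 0.49 and, without D4, 0.40 were under the fold threshold. Mmp12, the macrophage elastase, passed only without D4, at 5.07 and 5.06 in D3 and D10, 6.54 in D4 and 6.65, 6.55 and 5.24 in advanced carcinoma.

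Fgf23, a hormone that makes the kidney excrete phosphate and that bone cells chiefly secrete, read 4.11, 4.12 and 4.11 in carcinoma and 6.57, 6.96 and 5.16 in advanced carcinoma. The carcinoma arrays were flat near the level of normal gland and hyperplasia (3.83 to 4.07), and D4 did not stand apart here. The difference was 2.11 (SE 0.37) with all arrays and 2.12 (SE 0.43) without D4. Slc20a1, a phosphate importer, also held, at 8.72, 8.58 and 8.59 in carcinoma and 9.55, 9.42 and 9.13 in advanced carcinoma.

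Aldh1a2, which makes retinoic acid from retinal, read 5.35, 4.39 and 5.41 in carcinoma and 7.85, 7.08 and 6.34 in advanced carcinoma, a difference of 2.04 (SE 0.37) and, without D4, 1.71 (SE 0.35). Reg1 and Reg3g encode secreted C-type lectins, of which Reg3g kills Gram-positive bacteria. Reg1 read 4.85, 4.15 and 5.43 against 7.31, 7.06 and 6.03, a difference of 1.99 (SE 0.36). Reg3g read 4.05, 3.81 and 4.22 against 5.64, 5.32 and 5.04, with a difference of 1.31 (SE 0.16, 2.48-fold higher, limma adjusted p 0.370) and, without D4, 1.20 (SE 0.17, limma adjusted p 0.0536). Groups did not overlap in any of these genes.

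Some other held genes encode secreted or matrix-bound proteins and were grouped after their values were seen, and no member of the collagen and matrix glycoprotein lists held. Chad, a leucine-rich protein of cartilage matrix, read 5.04, 6.07 and 4.78 against 7.45, 6.24 and 6.35, and D4 came within 0.17 of the lowest advanced array. C1qtnf3, a secreted relative of adiponectin, read 7.57, 4.83 and 7.62 against 8.57, 8.76 and 8.00. Its difference shrank from 1.77 (SE 0.65) to 0.85 (SE 0.27) without D4, the low array. Cpxm2, a secreted protein of the carboxypeptidase family, shrank likewise from 1.43 to 0.69. A2m, a broad protease inhibitor, went the other way, with 4.62, 5.46 and 4.74 against 6.01, 6.54 and 5.77 and differences of 1.16 (SE 0.24) and 1.42 (SE 0.19, limma adjusted p 0.0536). Ahsg, which encodes the plasma protein fetuin-A, differed by 1.05 and 0.88, and Mamdc2, a matrix proteoglycan, by 1.11 and 0.88.

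Others of the 15 largest are known from neurons or vessels, likewise grouped after their values were seen. Unc5c, a netrin receptor, read 5.68, 3.90 and 5.39 against 6.44, 6.30 and 6.09 (difference 1.29, and 0.74 without D4). Kif1a, a motor for synaptic vesicle precursors, differed by 1.07 and 0.66, Clstn2, a synaptic cadherin-like protein, by 0.98 and 0.80, and Plxdc1, first described in tumour endothelium, by 0.94 both ways. Plxdc1 read 5.05, 5.04 and 5.05 in carcinoma and 6.49, 5.91 and 5.56 in advanced carcinoma. Cdh13, a cadherin without a cytoplasmic tail, read 6.40, 6.42 and 6.39 against 7.45, 7.48 and 6.76.

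**Figure D2:**
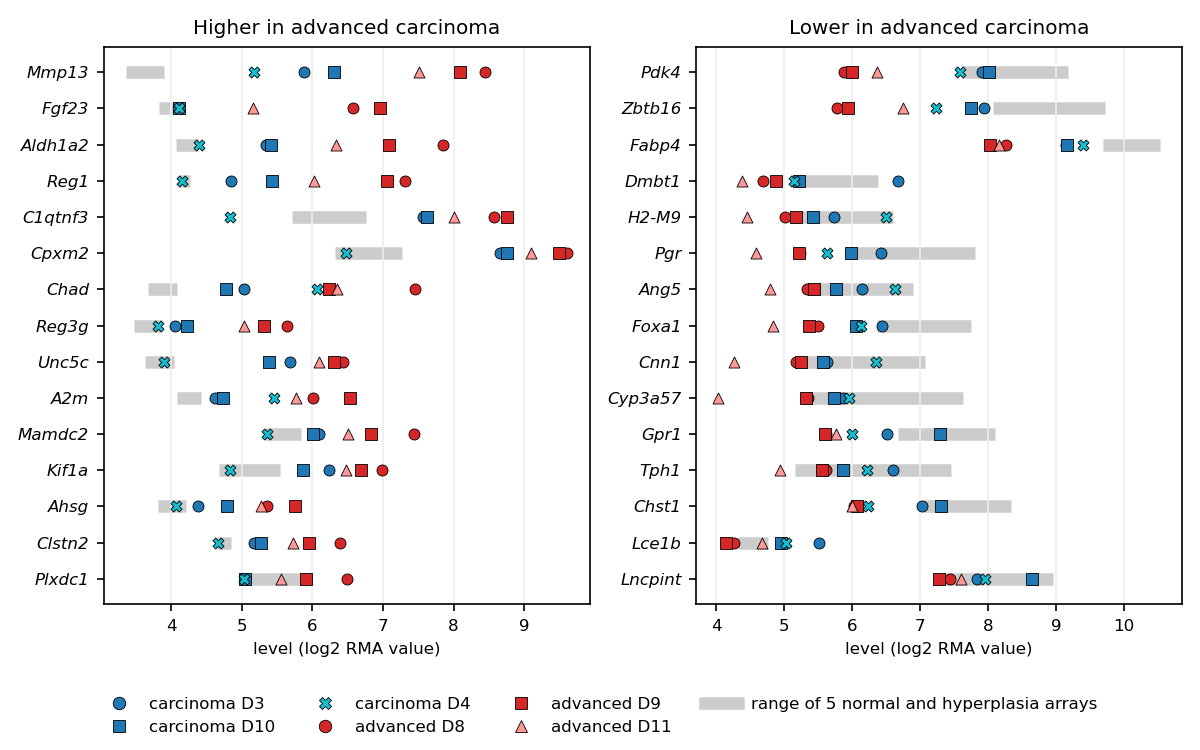
Log2 level (x axis) of the 15 genes with the largest difference in each direction among held genes whose groups did not overlap, with 1 symbol for each carcinoma array (blue), advanced carcinoma array (red) and the range of 5 normal and hyperplasia arrays (grey). In every row the red symbols lie on 1 side of the blue ones, and D11 is the red symbol nearest to the blue ones in most rows on the left.

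Some held genes with known roles in inflammation were grouped after their values were seen. In all 9 of them D4 lay above D3 and D10, but nothing is read from this. Held immune genes with D4 below D3 and D10, such as Tnfsf18 and Cxcl9, are given in other paragraphs. Among the 51 higher held genes D4 lay above D3 and D10 in 29 and below them in 20. Il1a, an alarmin of the IL-1 family, read 4.10, 5.26 and 3.98 in carcinoma and 5.93, 5.97 and 4.90 in advanced carcinoma, so D4 exceeded D11. Its difference was 1.15 (SE 0.36) with all arrays and 1.56 (SE 0.28) without D4. Il1b, the cytokine that the inflammasome matures, read 5.60, 6.65 and 5.19 against 7.67, 7.96 and 5.80, differing by 1.33 (SE 0.57) and 1.75 (SE 0.57). Il1b passed the study's threshold in 11 of 22 settings. Il1a passed in the 21 that tested it, and the setting with dim genes removed did not test it. Ccl8, a monocyte-attracting chemokine, read 6.37, 7.18 and 6.66 against 8.00, 8.51 and 7.14. Cxcl2, a neutrophil attractant, read 4.64, 5.43 and 4.60 against 6.25, 6.32 and 5.03. Vsig4 and Clec4n, receptors of tissue macrophages and other myeloid cells, differed by 1.02 and 0.89 with all arrays. Hpgds, a prostaglandin D2 synthase, read 4.48, 5.71 and 4.45 against 6.0, 6.04 and 5.09, and Atp6v0d2, a proton pump subunit of osteoclasts and macrophages, 4.09, 6.0 and 4.67 against 7.26, 6.64 and 5.20. Bcl3, a partner of NF-κB, read 7.52, 8.22 and 7.51 against 8.44, 8.50 and 8.10. In Il1a, Il1b, Ccl8, Cxcl2, Hpgds, Atp6v0d2 and Bcl3 D4 exceeded D11, so the groups overlapped.

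In Cemip, Tnfsf18 and Kcnma1 D4 lay below D3 and D10. Cemip, which breaks down hyaluronan, read 4.76, 3.59 and 5.90 against 6.29, 6.82 and 5.53, and the groups overlapped between D10 and D11. Tnfsf18, a ligand that costimulates T cells, read 5.30, 3.95 and 4.77 against 5.72, 6.07 and 5.27. Kcnma1, a calcium-activated potassium channel, read 4.57, 4.35 and 5.11 against 5.52, 5.93 and 5.16, with groups that did not overlap.

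Macrophage markers had D4 above D3 and D10, as had 29 of the 51 higher held genes, Il1a and Il1b among them. D4 lay below D3 and D10 in 20 of the 51, among them Cemip, Tnfsf18 and Kcnma1. The mean of 11 macrophage markers was 6.51, 7.90 and 6.27 in D3, D4 and D10 and 8.18, 8.33 and 6.58 in D8, D9 and D11, so D4, D8 and D9 were high and D3, D10 and D11 low. The values carry no detection call, and Adgre1, Csf1r and Cd68 ranged from 5.18 to 9.02 over the 6 arrays, against a median gene level of 5.64. The part of macrophage markers in the inflammatory differences was not tested. In bulk samples such as these, fewer cells of a type and less RNA per cell cannot be told apart.

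Targets of steroid hormones were among the largest lower differences. Pdk4, a kinase that shuts glucose carbon out of the citric acid cycle and that glucocorticoids induce, read 7.91, 7.58 and 8.02 in carcinoma and 5.88, 6.0 and 6.36 in advanced carcinoma, with 7.61 to 9.17 in normal gland and hyperplasia. The groups were more than 1 log2 unit apart at their nearest arrays. The difference was -1.76 (SE 0.33, 3.38-fold lower, limma adjusted p 0.689) with all arrays and -1.88 (SE 0.37) without D4. Zbtb16, a glucocorticoid-induced zinc finger factor, read 7.94, 7.24 and 7.75 against 5.78, 5.94 and 6.75 (difference -1.49, SE 0.39). Pgr, the progesterone receptor, read 6.42, 5.63 and 5.98 against 5.23, 5.22 and 4.59 (difference -1.0, SE 0.29). Klf9, a hormone-induced factor, read 9.11, 8.86 and 9.36 against 8.23, 8.18 and 8.88, so that D11 exceeded D4.

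These were 4 of the 12 measured members of the hormone response and glucocorticoid list that held, all lower (0.216% of all genes). Without D4, Greb1 and Esr1 passed too, so that 6 of the 12 were lower by the threshold (1.54% of all genes). Greb1, an oestrogen-induced gene, read 5.34 and 5.82 in D3 and D10, 4.35 in D4 and 4.42, 4.45 and 4.63 in advanced carcinoma. Esr1, the oestrogen receptor, read 8.09 and 8.27 in D3 and D10, 6.63 in D4 and 7.14, 7.18 and 7.77 in advanced carcinoma. The list median was -0.25 with all arrays and -0.45 without D4, against 0.012 and 0.010 over all genes. The list was chosen with earlier results of these data known, so nothing is read from its counts beside the shares of all genes.

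Fabp4, a fatty acid carrier of adipocytes and capillary endothelium, read 9.15, 9.39 and 9.16 in carcinoma and 8.26, 8.03 and 8.16 in advanced carcinoma, with 9.69 to 10.53 in normal gland and hyperplasia. It differed by -1.09 (SE 0.23) and -1.01 (SE 0.26) and was the only 1 of 9 measured adipocyte markers that held (0.216% of all genes held lower). Foxa1, a pioneer factor of luminal epithelium, read 6.44, 6.13 and 6.06 against 5.50, 5.37 and 4.84 (difference -0.98, SE 0.19). The mean of 16 luminal markers did not go the same way, at 8.42, 9.20 and 8.01 in carcinoma and 8.89, 8.85 and 8.13 in advanced carcinoma. Cnn1, a smooth muscle protein of myofibroblasts and myoepithelium, read 5.63, 6.35 and 5.57 against 5.17, 5.25 and 4.26, and was the only 1 of 12 measured myofibroblast genes that held. Tph1, the rate-limiting enzyme of serotonin synthesis outside the brain, differed by -0.86 in both fits, and Htr2b, a serotonin receptor, by 0.81 and 0.97. Gpr1, a chemerin receptor, differed by -0.95 and -1.25, and Chst1, a keratan sulphate sulphotransferase, by -0.83 and -1.14.

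Dmbt1, a mucosal scavenger receptor protein, differed by -1.04 and -1.31, Lce1b, a protein of the skin barrier, by -0.80 and -0.88, and Lncpint, a long noncoding RNA, by -0.70 and -0.80. H2-M9, Ang5 and Cyp3a57 differed by -1.01, -0.99 and -0.95, but they belong to families of near-identical genes and their levels are uncertain. Irf4, Procr, Edn1 and Cxcl9 also held, with D4 on the advanced side of D3 and D10 in each. Irf4, a factor of lymphocytes and macrophages, read 6.61, 5.87 and 7.04 against 5.62, 5.37 and 5.88. Cxcl9, an interferon-induced attractant of T cells, read 7.29, 6.35 and 6.87 against 5.98, 6.18 and 6.44.

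Inmt, an indole and thioether methyltransferase, had the largest lower difference of all, at 9.90, 7.24 and 9.85 in carcinoma and 7.46, 6.19 and 7.87 in advanced carcinoma, but D4 lay among the advanced arrays. It differed by -1.82 (SE 0.80) with all arrays and -2.71 (SE 0.62) without D4. Galnt15, a mucin-type glycosyltransferase, read 8.58, 6.99 and 9.08 against 6.55, 6.18 and 7.27. Ptn, a heparin-binding growth factor, read 8.08, 6.88 and 7.59 against 6.90, 6.83 and 6.40, and Cited1, a transcriptional cofactor of the mammary gland, 6.66, 5.84 and 6.34 against 5.71, 5.59 and 5.74.

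The mean level of T and NK cell markers was lower in every advanced array than in any carcinoma array, but among the carcinoma arrays D4 was highest for these markers and lowest for Cxcl9. The mean of 9 such markers was 6.14, 6.71 and 6.07 in carcinoma and 5.74, 5.57 and 5.23 in advanced carcinoma, and 6 of the 9 did not overlap between groups with all arrays, all lower (5.77% of all genes). Cd3e read 8.22, 8.74 and 7.87 against 7.21, 6.88 and 6.66, and Nkg7, of cytotoxic granules, 6.66, 7.64 and 6.96 against 5.87, 5.83 and 5.68. No T or NK marker passed the study's threshold in either fit, and their part in the difference of Cxcl9 was not tested.

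The promoters of the held genes were searched for 3 motifs in RefSeq windows of 250 bases before to 50 after the gene start (GRCm38.p6), on both strands. The AP-1-like motif TGANTCA was in 9 of 43 windows of higher genes (20.9%), 4 of 32 of lower genes (12.5%) and 6.98% of 15614 windows of all genes. Its middle base N was any base, so TGAATCA, as in Klf9, was counted along with TGACTCA and TGAGTCA. The STAT motif TTCNNNGAA was in 2.33%, 6.25% and 7.83% of the same windows. The palindromic glucocorticoid receptor motif was in 0 windows of either set and in 0.0704% of all. A match is a description of letters, not of a bound site. The stretches around the TGANTCA match are shown for 3 of the higher genes described above and for Klf9, with the match in capitals.
Mmp13 (chr9:7272454-7272510, + strand): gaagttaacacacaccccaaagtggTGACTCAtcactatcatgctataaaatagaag
Reg1 (chr6:78425841-78425897, + strand): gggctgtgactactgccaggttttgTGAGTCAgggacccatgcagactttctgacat
Il1a (chr2:129309953-129310009, - strand): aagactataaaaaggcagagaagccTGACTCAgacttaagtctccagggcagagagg
Klf9 (chr19:23141112-23141168, + strand): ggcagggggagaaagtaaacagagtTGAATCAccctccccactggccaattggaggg
The matches began 35 bases before the start of Mmp13, 117 before Reg1, 12 before Il1a and 89 before Klf9. Atf3, an AP-1-related stress factor, held as well, at 8.01, 8.42 and 7.85 in carcinoma and 9.03, 8.95 and 8.10 in advanced carcinoma. D4 exceeded D11 in Atf3, which passed the study's threshold in 13 of 22 settings. Any link between Atf3 and the TGANTCA matches was not tested.

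Probe sets named for microRNA genes held too. Mir200b, whose products restrain the factors that repress E-cadherin, read 4.08, 4.72 and 4.02 in carcinoma and 5.09, 5.16 and 4.37 in advanced carcinoma. Mir680-1 read 6.11, 5.08 and 4.92 against 3.95, 3.96 and 4.80, and Mir680-2 read 7.30, 6.44 and 6.34 against 5.33, 5.20 and 6.26. The Mir680 copies are near identical, so they are not separate observations, and an array of this kind does not separate a mature microRNA from its precursor. Their mature sequences in RefSeq are given with the seed, bases 2 to 8, in capitals.
miR-200b-3p: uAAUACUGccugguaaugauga
miR-200b-5p: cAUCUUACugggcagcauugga
miR-680: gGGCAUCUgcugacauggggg

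Genes past the threshold only when D4 was left out numbered 256 higher and 265 lower. D4 lay within the advanced range or beyond it in 246 and 255 of them, which follows from how they were chosen. The 8 higher ones named here include secretory genes and genes of macrophages. Pip, a secretory protein of lacrimal, salivary and mammary epithelium, read 4.85 and 5.74 in D3 and D10, 10.37 in D4 and 7.28, 10.64 and 9.44 in D8, D9 and D11, so its difference was 3.82 (SE 0.82) without D4 and 2.13 (SE 1.33) with it. Prol1 and Scgb1b27, secreted gland products, had the same arrays high. C1qc read 5.63 and 5.19 in D3 and D10, 7.79 in D4 and 8.06, 8.37 and 6.08 in advanced carcinoma. Ms4a6d, C3ar1, Adgre1 and Cpm ran alike, with differences of 1.57 to 1.72 without D4.

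The 8 lower ones named here read higher in all normal and hyperplasia arrays than in any advanced carcinoma array. Gpr165, an orphan receptor, read 8.00 and 7.96 in D3 and D10, 5.66 in D4 and 5.56, 5.63 and 6.68 in advanced carcinoma. Akr1c14, a steroid-reducing enzyme, read 9.61 and 10.01 in D3 and D10, 7.56 in D4 and 7.65, 7.33 and 8.56 in advanced carcinoma, with 10.23 to 11.19 in normal gland and hyperplasia. Il1r2, the decoy receptor for IL-1, read 8.82 and 9.21 in D3 and D10, 6.86 in D4 and 7.10, 7.12 and 7.91 in advanced carcinoma, a difference of -1.64 (SE 0.29) without D4 and -0.92 (SE 0.54) with it. Nova1, Smpd3, Pi15, Dmrt2 and Efhd1 differed by -1.66 to -1.54 without D4.

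Genes past the threshold only with D4 numbered 35 higher and 16 lower. Crabp1, which binds retinoic acid, read 8.64, 6.36 and 8.17 in carcinoma and 9.71, 9.37 and 8.75 in advanced carcinoma, and its difference went from 1.56 (SE 0.62) to 0.87 (SE 0.48) without D4. Has1, a hyaluronan synthase, went from 1.38 to 0.87 and Thbs4, a matricellular thrombospondin, from 1.29 to 0.52. Tenm3, a teneurin, read 5.99, 4.0 and 6.14 against 6.61, 6.65 and 6.69, and its difference without D4 of 0.58 (SE 0.08, limma adjusted p 0.0536) missed only the fold. Prokr2 and Dio2 differed by 1.35 and 1.24 with D4. Dapl1, Aqp7, Car4, Tlcd4, Tmem182 and Cxcl15 were lower by this rule. Aqp7, the glycerol channel of fat cells, read 7.44, 7.86 and 6.39 against 5.95, 5.86 and 5.39.

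**Figure D3:**
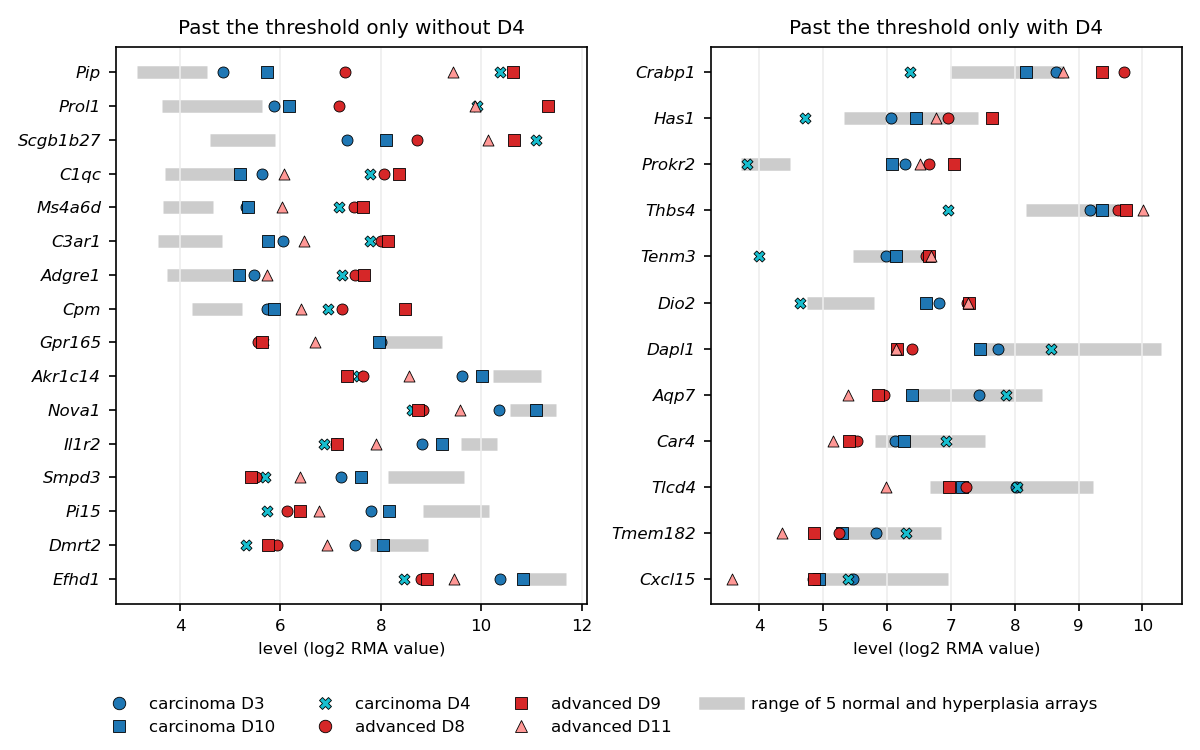
Log2 level (x axis) of genes past the study's threshold only without D4 (left) and only with D4 (right), by array, with the range of 5 normal and hyperplasia arrays in grey. On the left the D4 cross lies with the red advanced symbols, and on the right it lies on the far side of D3 and D10 or close to them.

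D4 turned the sign of the matrix lists. The 15 fibroblast markers had a median difference of 0.29 with all arrays and -0.23 without D4, when all 15 were negative and 13 did not overlap between groups (16% of all genes). Their mean level was 9.47 in D4 and 10.68 to 11.05 in the other 5 arrays. Pi16 and Cd34, of adventitial fibroblasts, and Fap, a stromal protease, passed the threshold without D4, with differences of -0.65, -0.59 and -0.65. The median of 25 collagen chains was 0.45 with all arrays and -0.04 without D4, and that of 23 matrix glycoproteins and crosslinking enzymes 0.40 and -0.09. Col11a1 was higher in both fits by 0.50 and 0.36, and Col8a2 by 0.54 and 0.34, with groups that did not overlap. Col12a1, a fibril-associated chain, read 9.58, 7.06 and 9.91 against 10.07, 10.21 and 10.04. No collagen passed the study's threshold in either fit. Ogn, a small proteoglycan, was lower by this threshold without D4, at 11.81 and 11.98 in D3 and D10, 10.49 in D4 and 11.03, 10.95 and 11.36 in advanced carcinoma.

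**Figure D4:**
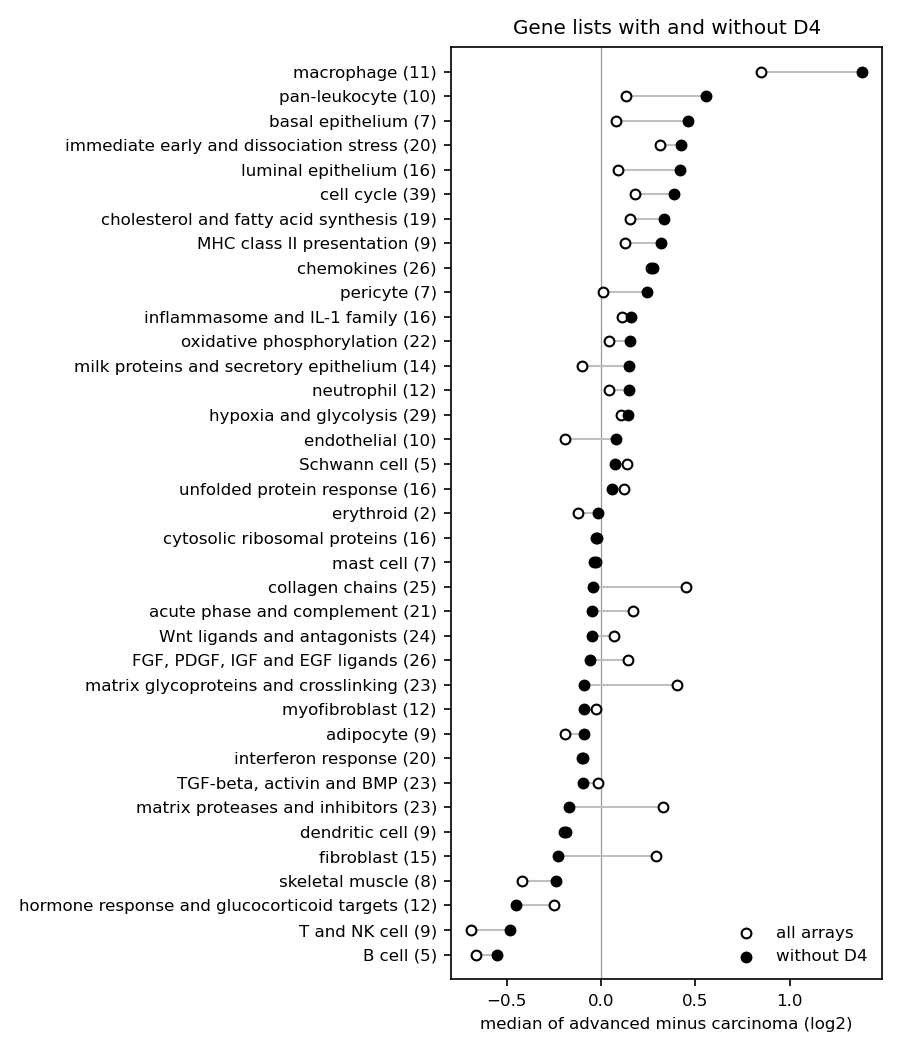
Median over each of 37 gene lists of the difference between advanced carcinoma and carcinoma (x axis, log2), with all arrays (open circles) and without D4 (filled circles). The number of measured genes is in brackets. The fibroblast, collagen and matrix lists cross 0 when D4 is left out, and the macrophage list is farthest to the right in both.

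The macrophage list was positive in 11 of 11 members in both fits, with a median of 0.85 with all arrays and 1.39 without D4. Without D4, 7 of the 11 passed the study's threshold (1.54% of all genes in that direction): Adgre1, Csf1r, Cd68, C1qa, C1qc, Fcgr1 and Ms4a7. Without D4 and the tied arrays the median was 1.88.

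Cell cycle genes had small positive differences, and none passed the study's threshold in either fit. Of 39 measured, 37 were positive with all arrays and 39 without D4, with medians of 0.18 and 0.39. Groups did not overlap in 0 of them with all arrays (6.48% of all genes) and in 31 without D4 (22.7% of all genes). Birc5, which encodes survivin, read 4.94 and 5.18 in D3 and D10, 5.79 in D4 and 5.65, 5.60 and 5.39 in advanced carcinoma. Cenpf, of the kinetochore, differed by 0.52 (SE 0.16) without D4. The mean of the list was 6.24, 7.01 and 6.45 in carcinoma and 6.76, 6.86 and 6.62 in advanced carcinoma, so D4 was the highest of the 6.

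Of 19 cholesterol and fatty acid synthesis genes, none passed with all arrays. Without D4, 18 were positive, 14 did not overlap (22.7% of all genes), and 3 passed the threshold in the higher direction (1.54% of all genes), among them Sqle, squalene epoxidase, and Srebf1, the lipogenic regulator. Sqle read 6.27 and 5.88 in D3 and D10, 7.11 in D4 and 6.87, 6.98 and 7.04 in advanced carcinoma. Msmo1, a sterol demethylase outside that list, held, at 6.41, 7.15 and 6.43 against 7.19, 7.36 and 7.31. In the hypoxia and glycolysis list, 5 of 29 passed without D4, all higher (1.54% of all genes), including Car9, a hypoxia-induced carbonic anhydrase (4.22 and 4.42 in D3 and D10, 5.15 in D4, and 5.16, 5.35 and 5.01 in advanced carcinoma), and Egln3, a hypoxia-induced prolyl hydroxylase.

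Immediate early and dissociation stress genes, which tissue digestion can raise, were positive in 19 of 20 members with all arrays and in 17 without D4, with medians of 0.31 and 0.42. Atf3 held, higher (0.256% of all genes). Dnajb1, Ier3, Hspa1a and Nr4a2 passed without D4 with differences of 0.61 to 1.08 (1.54% of all genes in the higher direction). Among growth factors, Fgf23 was the 1 of 26 that held (0.256% of all genes in the higher direction). Fgf10, a mesenchymal ligand for epithelium, read 9.38 and 9.84 in D3 and D10, 7.34 in D4 and 8.01, 7.83 and 8.91 in advanced carcinoma, and Hbegf, an EGF receptor ligand, 5.18 and 5.0 in D3 and D10, 5.44 in D4 and 5.86, 5.92 and 5.36 in advanced carcinoma, and both passed without D4. In the Wnt list Axin2, a feedback target of Wnt signalling, kept its groups apart at 6.26, 6.05 and 6.42 against 5.72, 5.69 and 5.67, lower by 0.55 with all arrays (under the fold threshold) and by 0.64 without D4 (past it). Wnt9a was past it only with D4, at 5.50, 4.58 and 5.55 against 6.09, 5.87 and 5.67. Bmp4 differed by -0.63 without D4, past the threshold.

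**Figure D5:**
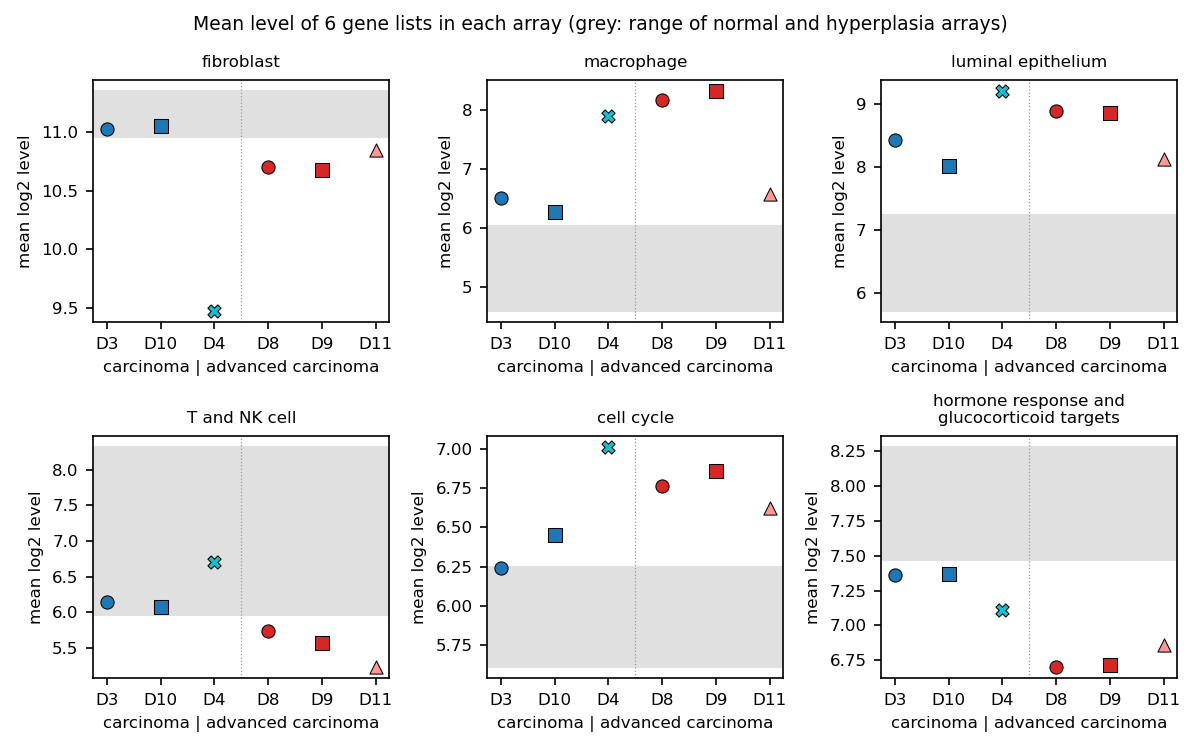
Mean log2 level (y axis) of 6 gene lists in each carcinoma and advanced carcinoma array, with the range of the 5 normal and hyperplasia arrays in grey. D4 is lowest for fibroblast markers and lies among the advanced arrays for macrophage markers, and the 3 advanced arrays are lowest for the hormone list and for T and NK markers.

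Of the 16 measured inflammasome and IL-1 genes, Il1a and Il1b were those that held, both higher (0.256% of all genes). Nlrp3, the sensor, read 3.97, 4.67 and 4.0 in carcinoma and 4.68, 4.84 and 4.30 in advanced carcinoma, a difference of 0.40 (SE 0.20) with all arrays and 0.62 (SE 0.14, 1.54-fold higher) without D4. Il18, an inflammasome substrate, differed by -0.49 and -0.74, and the latter passed the study's threshold, as did the difference of Il1r2 without D4. Without D4, 3 of the 16 passed higher and 2 lower (1.54% of all genes in each direction). The adaptor Pycard read 7.46, 8.02 and 7.25 against 7.75, 7.60 and 7.53, the protease Casp1 7.18, 7.77 and 7.34 against 7.68, 7.69 and 7.31, and the pore protein Gsdmd 5.46, 4.96 and 5.87 against 5.44, 5.48 and 5.48. All 3 overlapped between groups. The other members, Casp4, P2rx7, Il1rn, Il1rap, Il33, Nlrc4, Aim2 and Nek7, differed by -0.28 to 0.65 with all arrays, and none of them passed in either fit.

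Taking the tied arrays out left D3 and D10 against D8 and D9 when D4 was out as well, with the spread pooled over the other stages. In that fit 381 genes passed an adjusted p under 0.05 by limma (1.91%), 257 higher and 124 lower, and 41 of the 94 held genes were among them. Fgf23 differed by 2.65 (adjusted p 0.000936), Il1a by 1.91 (0.000936), Mmp13 by 2.18 (0.00471), Il1b by 2.42 (0.00541) and Galnt15 by -2.47 (0.00512). Of the macrophage list, 9 of 11 passed, all higher. Of the arrays left out, D4 was nearer to D8 and D9, and D11 nearer to D3 and D10, than to its own stage. The small adjusted p values therefore depend on which arrays were left out, and the overlap with the held genes reuses the same contrast. Leaving out normal D2 alone, without D4, called 0 genes (smallest adjusted p 0.0863 by limma). Leaving out normal D5 instead, which keeps the tied pair, gave the same count and the same smallest adjusted p. A single normal array adds no spread to the fit either way, so that fit cannot show what the tie does. With D4 kept, the fit without the tied arrays called 2 genes, Fgf23 (adjusted p 0.0022) and Cdh13 (adjusted p 0.00719). A term for the tied arrays in place of leaving them out called none with all arrays (1225 at an unadjusted p under 0.05) and 3 without D4, namely Mmp13, Reg3g and Them5, an acyl-CoA thioesterase.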

How the data were processed

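Affymetrix Mouse Gene 1.0 ST arrays of sorted fibroblasts were normalized by the authors with the robust multi-average (RMA) procedure of Partek 6.5. Deposited are log2 values of 35399 probe sets. Probe sets with 1 symbol (21789) were named through the platform annotation. Those with several symbols (1621) or none here (11989) were left out, and the brightest probe set was kept for the 999 genes with more than 1. No genome build is named for the values, so genes carry no coordinates. Groups were taken from the sample titles. Differences were fitted with limma 3.58.1 in R 4.3.3 over 4 stages and all 11 arrays, with moderated tests and Benjamini-Hochberg adjustment, and again without carcinoma D4. The study's threshold was an unadjusted p under 0.05 with a fold over 1.5. The script was checked on simulated data. Named genes were drawn from the 15 largest held differences in each direction with groups that did not overlap, 8 in each direction past the threshold only without D4, 6 only with D4, and the 4 smallest p-values of each gene list in each fit. Predicted genes, small RNAs, receptors of smell and immune receptor segments were left aside by that rule, and some list members are given only by counts. The inflammasome list was always given. Chosen outside the rule, after their values were seen, were Pi16, Csf1r, Cd68, Esr1, Ier3, Hspa1a, Egln3, Mmp12, Irf4, Galnt15, Inmt, Slc20a1, Cdh13, Htr2b, Vsig4, Clec4n, Hpgds, Atp6v0d2, Bcl3, Cemip, Tnfsf18, Kcnma1, Ptn, Cited1, Msmo1, Procr, Edn1, Them5 and the microRNA genes. The members, lists and tests were chosen with earlier results of these data known. The number of arrays limits the precision.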

Additional observations from a re-analysis of the deposited data

How the results depend on the processing

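The adjusted threshold was passed by 0 genes with all arrays, by 1301 with array weights (from 0.203 for D4 to 3.04 for D3) and by 2 without the tied arrays. Leaving out 1 array gave 0 to 2. Without D4 the count was 0, with 24 under limma-trend with robust estimates, 897 with array weights, 3 with a term for the tied arrays and 381 without them, and leaving out 1 array gave 0 to 196, the highest without D11, and 2 without hyperplasia D6. The study's threshold was passed by 145 genes, and by 83 after dim genes were removed, 89 with the contrasts of an analysis of variance that the methods name, 717 with array weights, 275 without the tied arrays and 43 at a fold over 2, and leaving out 1 array gave 81 to 615. The genes that held with and without D4 numbered 94, and 51, 57, 626, 243 and 22 under the same alternatives, and leaving out 1 array gave 50 to 229. The fit of the 6 arrays alone had 34.9% of 152 genes higher, against 59.3% of 145. The causes of these shifts were not tested, save that fewer genes were tested without dim genes and that a stricter fold passes fewer.

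Over 136 named genes, 2411 values kept their direction and side of the threshold, 234 lost it and 137 gained it. Those that turned sign were Pdgfra (-0.251 with array weights), Epcam (0.196 with array weights, 0.002 with a term for the tied arrays, 0.222 without them), Fap (-0.625 and, without the tied arrays, -0.109), Gsdmd (-0.009 median-centred, -0.019 quantile, -0.053 weighted), Nek7 (0.043 without the tied arrays) and Pycard (-0.013 quantile, -0.020 with the term). When 1 array was left out, the difference ran from -0.325 to 0.577 for Pdgfra, -0.308 to 0.222 for Epcam, -0.647 to 0.466 for Fap, -0.198 to 0.257 for Gsdmd, -0.155 to 0.043 for Nek7, -0.115 to 0.273 for Pycard, -0.594 to 0.043 for Cd34, -0.820 to 0.001 for Esr1 and -0.651 to 0.169 for Pi16. None of these passed the study's threshold with all arrays. List medians near 0 turned sign with the scaling for neutrophil, pericyte and oxidative phosphorylation genes with all arrays, and for erythroid, unfolded protein response and ribosomal protein genes without D4. No paired analysis was possible because the groups compared share no replicate number.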
